A study of Mus musculus with 14 samples.

Results

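Neutrophil granule and alarmin genes were followed in RNA of whole mouse paws. The group holds 10 genes, S100a8, S100a9, Elane, Mpo, Camp, Ngp, Ltf, Lcn2, Mmp8 and Retnlg, taken by symbol from the 56691 gene IDs of the count table. All 10 were found. The paws came from newborn mice on postnatal day 0 (P0) and day 3 (P3), wild type (WT) or Krt9-/-, called Krt9 null here. Krt9 encodes a keratin of palm and sole epidermis. There were 4 P0 WT libraries, 2 P0 Krt9 null, 5 P3 WT and 3 P3 Krt9 null, each of ribosomal RNA-depleted total RNA, and each group holds both labelled sexes. The labels give a litter number, and P3 WT replicates 2 and 3 carry the same one. How the null allele was made, the strain, and any treatment of the mice are left unstated by the labels. Replicates are separate samples per the labels, but nothing says that each is 1 animal, so p-values measure the spread between these samples.

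Neutrophils are short-lived white blood cells that mature in bone marrow and fill their granules in a set order. Primary granules, made first, hold Mpo and Elane. Secondary and tertiary granules follow with Camp, Ngp, Ltf, Lcn2 and Mmp8, and the alarmins S100a8 and S100a9 fill the cytosol of mature cells. Alarmins signal tissue stress when released. Stressed keratinocytes can also make S100a8 and S100a9, and epithelia can make Lcn2. A whole paw holds skin, muscle, blood, bone and marrow, and in such bulk RNA fewer cells of a type and less RNA per cell cannot be told apart.

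Total counts ran from 28947715 to 41004173 per library, and 25119 to 28061 genes had at least 1 count. Krt9 itself, as CPM of the library total (counts scaled to a common library size), lay at 5.72 and 6.01 in the P0 Krt9 null libraries, within the 1.95 to 6.88 of P0 WT, so on P0 it does not check the labels. On P3 it was 8.08 to 24.7 in the null libraries and 33.1 to 85.2 in WT, with no overlap. P0 WT replicate 4 is labelled female but had 0.195 CPM of Xist and 0.167 of the Y-linked Ddx3y, while Xist and Ddx3y matched the labelled sex in each remaining library. The columns of the count table stand in 2 alphabetical runs, A with 8 libraries and B with 6, whose origin no label states. The tests of the 10 genes are repeated within each run. Run A holds 3 of the 4 P0 WT libraries and 1 null library of each day.

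The promoters of 6 of the 10 genes are shown. S100a8, S100a9, Camp and Mmp8 passed the day test described further on, and Ngp and Ltf were the pair with the highest correlation. The sequences are the 250 bases before the RefSeq start in GRCm38.p6, 5′ to 3′ on the gene's strand. Capitals mark matches to TTGCNNAA (C/EBP) or GAGGAA (PU.1) on either strand, the motifs of factors that drive myeloid gene expression. S100a8 lies at chr3:90668821-90669070 on the plus strand, S100a9 at chr3:90695722-90695971 (minus), Camp at chr9:109849457-109849706 (minus), Ngp at chr9:110419558-110419807 (plus), Ltf at chr9:111019042-111019291 (plus) and Mmp8 at chr9:7558179-7558428 (plus).
S100a8: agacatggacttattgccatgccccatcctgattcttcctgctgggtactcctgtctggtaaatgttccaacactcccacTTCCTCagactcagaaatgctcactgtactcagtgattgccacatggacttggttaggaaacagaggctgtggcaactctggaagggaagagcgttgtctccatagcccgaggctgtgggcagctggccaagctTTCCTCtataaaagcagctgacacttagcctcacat
S100a9: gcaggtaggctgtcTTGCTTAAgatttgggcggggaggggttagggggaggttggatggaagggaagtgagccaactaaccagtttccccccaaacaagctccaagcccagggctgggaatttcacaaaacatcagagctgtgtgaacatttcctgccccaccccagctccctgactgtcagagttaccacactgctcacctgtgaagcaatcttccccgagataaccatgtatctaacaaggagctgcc
Camp: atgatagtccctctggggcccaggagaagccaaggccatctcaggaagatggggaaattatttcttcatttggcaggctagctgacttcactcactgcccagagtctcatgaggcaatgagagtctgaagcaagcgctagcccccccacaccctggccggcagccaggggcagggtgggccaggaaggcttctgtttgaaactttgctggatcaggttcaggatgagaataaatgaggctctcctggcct
Ngp: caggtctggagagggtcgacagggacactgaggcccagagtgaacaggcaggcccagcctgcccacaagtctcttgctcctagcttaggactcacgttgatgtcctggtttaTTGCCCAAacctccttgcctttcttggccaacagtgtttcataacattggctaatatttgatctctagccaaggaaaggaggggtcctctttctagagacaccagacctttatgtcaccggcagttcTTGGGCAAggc
Ltf: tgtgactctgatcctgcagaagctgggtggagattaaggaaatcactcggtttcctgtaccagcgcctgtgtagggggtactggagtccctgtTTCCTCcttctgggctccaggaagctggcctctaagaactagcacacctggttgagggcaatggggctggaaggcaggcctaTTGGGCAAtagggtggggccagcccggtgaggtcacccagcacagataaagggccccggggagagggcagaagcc
Mmp8: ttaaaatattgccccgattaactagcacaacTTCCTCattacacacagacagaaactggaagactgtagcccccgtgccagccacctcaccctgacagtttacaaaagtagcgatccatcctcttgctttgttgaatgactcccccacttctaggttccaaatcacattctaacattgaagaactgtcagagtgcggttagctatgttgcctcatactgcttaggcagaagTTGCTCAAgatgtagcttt

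The C/EBP motif was found before 6 of the 10 genes (S100a9, Ngp, Ltf, Lcn2, Mmp8 and Retnlg), and before 9.55% of 27025 promoters of the same length. The PU.1 motif was found before 6 of the 10 (S100a8, Ltf, Lcn2, Mmp8, Elane and Mpo), and before 23.1% of all. Ngp held the C/EBP motif at both -138 to -131 and -11 to -4 from its start, and S100a8 the PU.1 motif at -170 to -165 and -36 to -31. Ltf, Lcn2 and Mmp8 held both motifs. The printed Camp promoter held neither. AP-1 (TGANTCA) was found before none of the 10 and 6.87% of all, NF-kB (GGG, any 5 bases, CC) before 3 and 45.4%, and GFI1 (AAATCA) before 2 and 12.7%. In Ltf the NF-kB matches overlap each other. A match describes letters in the window and was not tested for binding.

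S100a8 and S100a9, which form the heterodimer calprotectin, had the highest levels per length of the 10 genes in each of the 4 groups. S100a9 averaged 174 CPM (from here on after TMM scaling) per kilobase of exon in P3 WT paws and 65.9 in P0 WT, and S100a8 averaged 88.3 and 32.1. Ngp (33.4 in P3 WT) and Retnlg (30.3) came next, in that order on P3 and in reverse on P0. Mpo (3.98) and Elane (2.87) were the lowest, with Elane last, in every group. Library ranges of neighbours in this order overlapped for 9 of 9 pairs in P0 WT, 7 of 9 in P0 Krt9 null, 7 of 9 in P3 WT and 9 of 9 in P3 Krt9 null. In P3 WT the ranges that stood apart were S100a8 above Ngp, and Retnlg above Camp.

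Between P0 and P3 in WT paws, 4 of the 10 genes, S100a8, S100a9, Camp and Mmp8, rose by 2.44 to 7.85-fold. The other 6 had higher fitted levels on P3 but missed an adjusted p of 0.05 in edgeR's quasi-likelihood test with Benjamini-Hochberg adjustment. Over all 21619 genes tested, 8.49% passed as higher, beside 4 of the 10, and 16.6% in either direction. The median log2 fold change was 1.90 over the 10 genes and -0.01 over all genes. At an unadjusted p under 0.05 the same test took 8 of the 10 genes and 30.7% of all. The direction was up for 10 of 10 genes in every alternative fit and with any 1 library left out, but the number of calls was not stable. No gene of the 10 was called without P0 WT replicate 1, P0 WT replicate 3 or P3 WT replicate 4. There were 1 or 2 calls without P0 WT replicate 4 or P3 WT replicate 1, 2 or 5. Of all genes, 1764 of 21201 and 1629 of 21750 were called without P0 WT replicates 1 and 3. Without P3 WT replicate 4, 2683 of 21764 were called, and without P0 WT replicate 4, 4108 of 21229. Without P3 WT replicates 1, 2 and 5 the counts were 2940 of 21240, 2430 of 21277 and 2411 of 21702. With litter as a replicate block, which leaves 2 residual degrees of freedom, edgeR called 0 of the 10 and 3 of all genes (0.0139%). DESeq2 called 8 of the 10 genes and 21.7% of all.

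**Figure D1:**
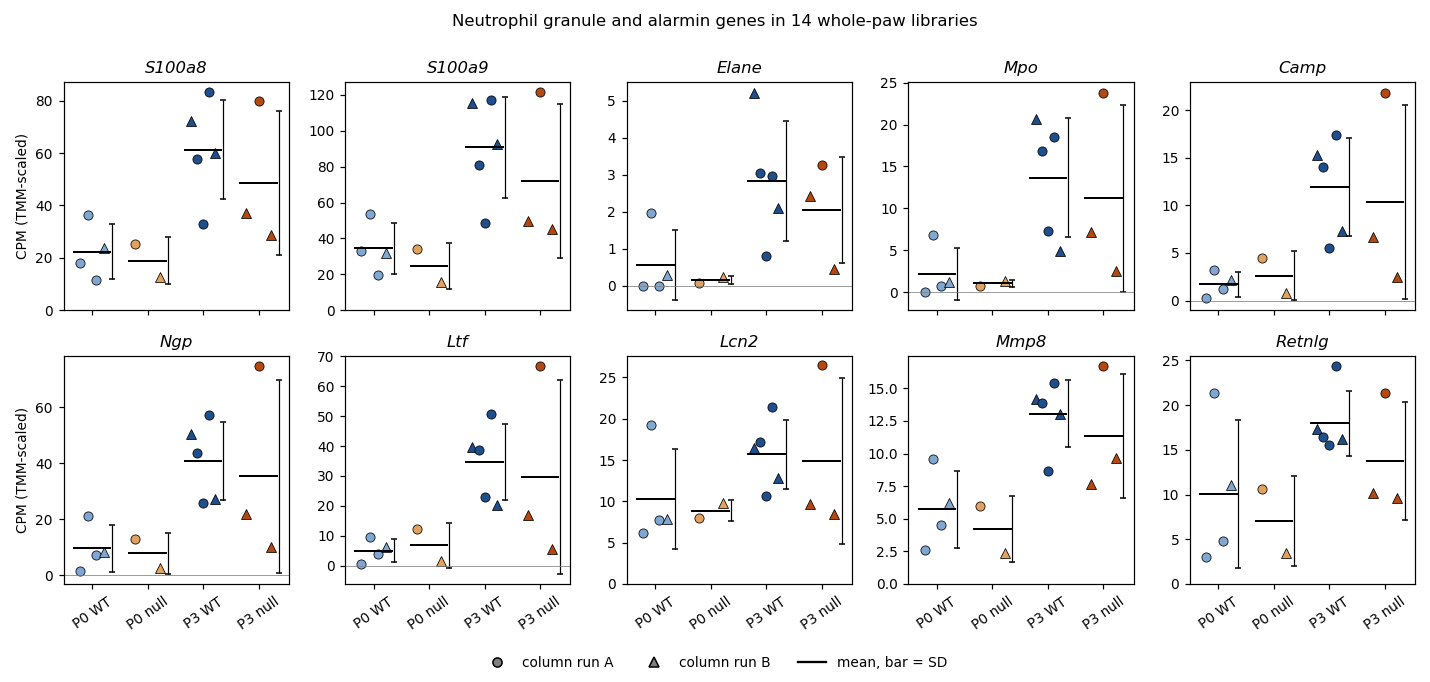
Levels of the 10 genes in CPM after TMM scaling (vertical axes, linear, 1 per gene) in the 4 groups, 1 point per library, circles for column run A and triangles for run B, with the mean as a line and the SD as a bar. Camp, Ngp and Ltf have no P3 WT library within the P0 WT range, and the WT and Krt9 null points of a day overlap in every panel.

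S100a8 was at 18.1, 36.2, 11.3 and 23.6 CPM in P0 WT replicates 1 to 4, and at 72.3, 57.8, 32.8, 83.5 and 60.0 CPM in P3 WT replicates 1 to 5. P3 WT replicate 3 lay below P0 WT replicate 2, and the other P3 libraries lay above all 4 of P0. The means were 22.3 ± 10.5 (SD, n = 4) and 61.3 ± 19.0 CPM (SD, n = 5), a 2.91-fold rise (log2 1.54, SE 0.40, adjusted p = 0.0238, edgeR). S100a9, its partner, was at 33, 53.7, 19.4 and 31.6 CPM in P0 WT and at 115, 80.9, 48.5, 117 and 92.6 CPM in P3 WT. The same pair of libraries, P0 replicate 2 and P3 replicate 3, made the groups overlap. S100a9 rose 2.74-fold (log2 1.45, SE 0.40, adjusted p = 0.0329, edgeR).

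Elane, the serine protease neutrophil elastase of primary granules, had raw counts of 0, 52, 0 and 11 in P0 WT and of 190, 127, 25, 89 and 68 in P3 WT. A count of 0 allows up to 3 counts, or 0.0783 CPM in P0 WT replicate 1 and 0.107 in replicate 3, for counting error only. In CPM, Elane was at 0, 1.96, 0 and 0.285 on P0 and at 5.23, 3.06, 0.793, 2.96 and 2.10 on P3. Only P0 replicate 2 reached into the P3 range. The fitted log2 difference was 2.83 (SE 1.17, adjusted p = 0.126, edgeR), and how far the zeros and the prior count move it was not tested. Mpo, the myeloperoxidase of the same granules, was at 0, 6.77, 0.750 and 1.22 CPM on P0 and at 20.7, 16.8, 7.23, 18.6 and 4.88 CPM on P3. P0 replicate 2 exceeded P3 replicate 5 alone. Its log2 difference of 3.21 (SE 1.14) had an adjusted p of 0.0822 in edgeR. DESeq2 called both Elane (adjusted p = 0.0398) and Mpo (0.0131).

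Camp, the precursor of the antimicrobial peptide CRAMP of secondary granules, was at 0.235, 3.20, 1.18 and 2.15 CPM in P0 WT and at 15.2, 14, 5.55, 17.3 and 7.35 CPM in P3 WT. The groups did not overlap, and Camp had the largest fold of the 4 called genes, 7.85 (log2 2.97, SE 0.86, adjusted p = 0.0404, edgeR). Ngp, a granule protein of the cathelicidin-related family, was at 1.41, 21.3, 7.25 and 8.20 CPM on P0 and at 50.5, 43.5, 25.6, 57.1 and 27.3 CPM on P3. Ltf, the iron-binding lactoferrin, was at 0.496, 9.51, 3.79 and 6.39 CPM on P0 and at 39.6, 38.8, 23.0, 50.9 and 20.4 CPM on P3. Neither gene's groups overlapped, P0 replicates 1 and 2 differed widely, and both genes missed the threshold (Ngp log2 2.27, SE 0.84, adjusted p = 0.0940; Ltf log2 2.94, SE 0.97, adjusted p = 0.0655, edgeR). Groups that did not overlap, with P3 higher, were thus seen for 3 of the 10 genes and for 8.96% of all genes tested.

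Mmp8, the neutrophil collagenase, was at 2.61, 9.59, 4.54 and 6.21 CPM in P0 WT and at 14.2, 13.9, 8.69, 15.4 and 13 CPM in P3 WT. P3 replicate 3 again fell below P0 replicate 2, and Mmp8 rose 2.44-fold (log2 1.29, SE 0.36, adjusted p = 0.0278, edgeR). Lcn2, a protein that captures bacterial siderophores, ranged from 6.14 to 19.3 CPM in P0 WT and from 10.6 to 21.5 CPM in P3 WT (log2 0.74, SE 0.35, adjusted p = 0.171, edgeR). Retnlg, a secreted resistin-like protein of neutrophils, ranged from 2.98 to 21.4 CPM and from 15.6 to 24.3 CPM (log2 1.06, SE 0.52, adjusted p = 0.192, edgeR). These were the smallest folds of the 10, and P0 replicate 2 was within the P3 range for both.

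Within column run A, with 3 P0 and 3 P3 WT libraries, all 10 genes were higher on P3 (log2 0.61 to 3.11) but edgeR called 0 of them (adjusted p 0.0961 to 0.492), while it called 29.6% of all genes. Within run B, with 1 P0 and 2 P3 WT libraries, all 10 were higher (log2 0.61 to 3.67) and 2 were called, against 2.16% of all genes. With the run as a term 4 were called, and 25.8% of all genes.

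Within libraries, the ratio of a granule gene to an alarmin was also read. Reads of Ltf per read of S100a8, not corrected for length, were 0.0274 to 0.334 in P0 WT and 0.341 to 0.700 in P3 WT. In Krt9 null paws the ratio was 0.117 to 0.481 on P0 and 0.197 to 0.833 on P3, with overlap. Reads of Mpo per read of S100a8 were 0 to 0.187 in P0 WT and 0.0813 to 0.290 in P3 WT, which overlap. Reads of S100a8 per read of S100a9 stayed between 0.550 and 0.814 over the 14 libraries. No test was run on these ratios.

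In Krt9 null paws, none of the 10 genes passed the test between P0 and P3, and all 10 had a higher fitted level on P3, with log2 differences from 0.61 (Lcn2) to 3.72 (Elane), a median of 1.57 and edgeR adjusted p from 0.241 to 0.699. Of all genes, 0.768% passed in edgeR. At an unadjusted p under 0.05 the same test took 3 of the 10 genes and 15.9% of all. S100a8 was at 25.2 and 12.7 CPM in the P0 null replicates and at 37.0, 80.0 and 28.5 CPM in those of P3. S100a9 was at 33.9 and 15.6 CPM and at 49.6, 122 and 45.0 CPM. For both alarmins, and for Mmp8, Elane and Mpo, every P3 null library lay above both P0 null libraries. That makes 5 of the 10, against 11.8% of all genes.

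The fitted log2 differences of S100a8 (1.19, SE 0.55) and S100a9 (1.39, SE 0.57) in null paws had adjusted p of 0.323 and 0.262 in edgeR, and DESeq2 called S100a9 alone of the 10 (adjusted p = 0.0491, 5.06% of all genes). Camp was at 4.42 and 0.831 CPM on P0 and at 6.64, 21.8 and 2.49 CPM on P3. Ngp was at 13 and 2.7 CPM and at 21.7, 74.5 and 9.90 CPM. For Camp, Ngp and Ltf, P3 null replicate 3 lay below P0 null replicate 1, so the days overlapped. Ltf was at 12.1 and 1.49 CPM on P0 and at 17.0, 66.6 and 5.62 CPM on P3.

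Mpo was at 0.746 and 1.34 CPM in P0 null and at 7.17, 23.8 and 2.56 CPM in P3 null libraries, and Elane at 0.0861 and 0.227 CPM and at 2.43, 3.26 and 0.456 CPM. The Elane values on P0 rest on 3 and 9 counts. Mmp8 was at 6.0 and 2.39 CPM and at 7.67, 16.7 and 9.69 CPM. Lcn2 ran from 7.95 to 9.80 CPM on P0 and from 8.50 to 26.5 CPM on P3, and Retnlg from 3.45 to 10.6 CPM and from 9.65 to 21.4 CPM. Within column run B edgeR called S100a8, S100a9, Mmp8 and Retnlg in null paws, 4 of 10 against 7.51% of all genes, on 1 P0 and 2 P3 libraries. Within run A, which holds 1 null library of each day, it called 0 of 10 and 0.0599% of all genes, with all 10 higher on P3 (log2 1.06 to 5.23).

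**Figure D2:**
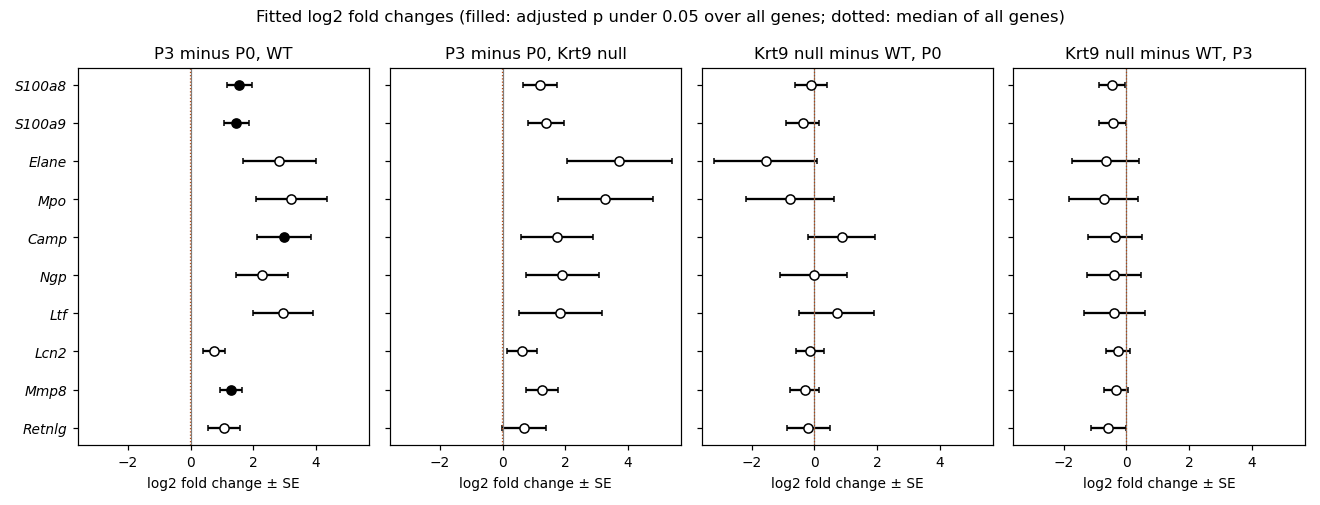
Fitted log2 fold changes with SE (horizontal axes) of the 10 genes (rows) for P3 against P0 in WT and in Krt9 null paws and for Krt9 null against WT on P0 and on P3. Filled points, at S100a8, S100a9, Camp and Mmp8 in the WT panel, have an adjusted p under 0.05 in edgeR, and the dotted line is the median of all genes.

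No difference between Krt9 null and WT paws was detectable for any of the 10 genes in the fit of all libraries. On P0, edgeR called 0 of the 10 between Krt9 null and WT, with adjusted p from 0.906 to 0.999, and 0.00463% of all genes. At an unadjusted p under 0.05 it took 0 of the 10 and 5.96% of all. Camp (log2 0.87, SE 1.06) and Ltf (0.71, SE 1.20) were fitted higher in null paws, and the other 8 lower, down to -1.56 for Elane (SE 1.64). The median was -0.17. S100a8 averaged 19.0 ± 8.86 CPM (SD, n = 2) in P0 null and 22.3 ± 10.5 CPM in P0 WT paws, and S100a9 24.7 ± 12.9 and 34.4 ± 14.2. With 2 null libraries the SE of these differences ran from 0.45 (Lcn2) to 1.64 on the log2 scale. None of the 10 genes had groups that did not overlap, against 6.47% of all genes higher and 4.82% lower. Within column run A 6 of the 10 were fitted higher in the null library, and within run B, with 1 library a group, 8 were lower. Neither run gave a call among the 10, against 2.89% and 0.0401% of all genes.

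On P3, all 10 genes were fitted lower in Krt9 null than in WT paws, by 0.28 (Lcn2) to 0.73 (Mpo) on the log2 scale. None passed (edgeR adjusted p from 0.943 to 0.981), beside 0.00463% of all genes called. At an unadjusted p under 0.05 the same test took 0 of the 10 and 6.67% of all. The median log2 difference was -0.42, and the SE ran from 0.39 to 1.09. Every P3 comparison of these genes overlapped, against 1.3% of all genes that stood apart as higher and 1.27% as lower. DESeq2 also called 0 of the 10 on each day, beside 0.0416% of all genes on P0 and 0.12% on P3.

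The null libraries of P3 did not form 1 level. Replicate 2 had the highest value of the day, WT included, for S100a9, Camp, Ngp, Ltf, Lcn2, Mmp8 and Mpo. Replicate 3 had the lowest for 9 of the 10 genes, all but Mmp8, which was lowest in replicate 1. Ltf spanned 5.62 to 66.6 CPM within these 3 libraries and 20.4 to 50.9 CPM within the 5 WT libraries. Summed over the 10 genes, the null replicates had 169, 456 and 122 CPM, and the P3 WT replicates 367, 302, 178, 408 and 257 CPM.

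Null replicate 2 of P3 is the single null library of column run A on that day, and the direction of the genotype comparison turned with the run. Within run A all 10 genes were higher in the null library (log2 0.19 to 0.83, 0 called, 0.00461% of all genes). Within run B all 10 were lower in the 2 null than in the 2 WT libraries (log2 -0.64 to -1.39), and S100a8 (-1.0, SE 0.16, adjusted p = 0.0383, edgeR) and S100a9 (-1.13, SE 0.14, adjusted p = 0.0344) were called, beside 0.499% of all genes. Without null replicate 2, over all other libraries, the median was -0.92 and 0 of the 10 genes were called. It was -0.21 without null replicate 1 and -0.18 without null replicate 3, where 4 of the 10 genes were fitted higher in null paws. The run B fit rests on 2 residual degrees of freedom. Each P3 genotype of run B held a male and a female library by label, and litter numbers differed between all libraries of the run.

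Whether the day difference itself differed between genotypes was tested by the interaction. The edgeR test called 0 of the 10 genes and 0 of all genes, with adjusted p from 0.912 to 0.9997 for the 10 genes. At an unadjusted p under 0.05 it took 0 of the 10 and 7.6% of all. The fitted interaction ran from -1.23 (Camp, SE 1.43) to 0.89 (Elane, SE 1.95), with a median of -0.24. DESeq2 called 0 of the 10 and 0.393% of all genes. Within the runs edgeR also called 0 of the 10, against 0.12% of all genes in run A and 0.0624% in run B. The comparisons of day and genotype share groups, so their values are not independent of each other.

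The 10 genes deviated together from library to library. After the mean of each group was removed from log2(CPM + 1), Pearson's r over the 14 libraries ran from 0.59 (Elane with Retnlg) to 0.98 (Ngp with Ltf) over the 45 pairs, with a median of 0.78. S100a8 and S100a9 correlated at 0.98. These points share library, depth and scaling, and 1 high or low library moves all pairs. P0 WT replicate 2 was the highest P0 library for 8 of the 10 genes and P0 WT replicate 1 the lowest for 7, and their summed levels were 183 and 65.0 CPM. The other P0 libraries summed to 60.9 and 98.6 CPM in WT and to 114 and 50.5 CPM in null paws.

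**Figure D3:**
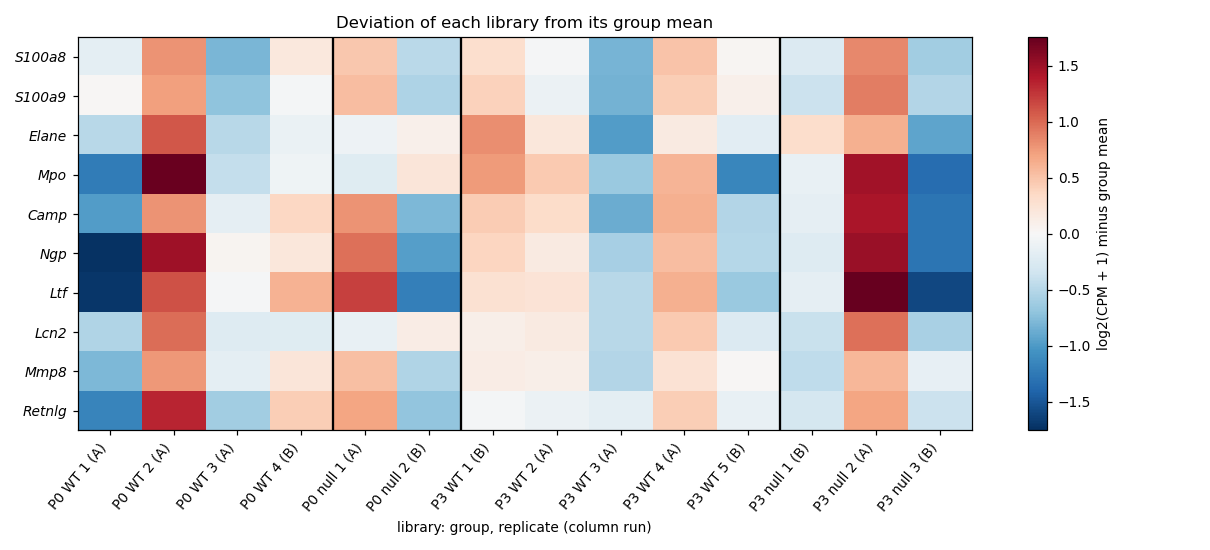
Deviation of each library (columns, with column run in brackets) from its group mean for the 10 genes (rows), as log2(CPM + 1) minus the group mean on the colour scale. Columns of 1 colour include P0 WT 2 and P3 null 2 (red) and P3 WT 3 and P3 null 3 (blue). Some other columns, such as P0 null 1 and P0 null 2, hold both colours.

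Genes whose pattern was most like that of the 8 granule genes over the 14 libraries, by Pearson's r with their mean standardised log2(CPM + 1), were C3 (0.97), Spn (0.97), Itgb2 (0.96), Cd177 (0.95), Myh2 (0.95), Pglyrp1 (0.95), Ikzf1 (0.95) and Igsf6 (0.94). With group means removed they were Spn (0.96), C3 (0.96), Lbp, Itgb2, Snx10, Ctsk, Ncf4 and Fpr2 (0.93). For S100a8 and S100a9 the list was Olfm4 (0.96), Ncf4, Sp110, Spn, Padi4, Fgr, Nfam1 and Pglyrp1 (0.93). With group means removed it was Stfa2l1 (0.94), Olfm4, Gss, Ncf4, Sp110, Ifitm6, Padi4 and Msra (0.87). Myh2 encodes a muscle myosin and Ctsk the collagen-degrading protease of osteoclasts. Genes were picked as the closest of all genes with a mean of at least 2 CPM, so their r is high by choice.

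For the lists that follow, edgeR called 8.49% of all genes higher and 8.07% lower on P3 than on P0 in WT paws. Of 10 other primary granule and early neutrophil genes, edgeR called Ctsc higher (1.85-fold, adjusted p = 0.00161), the protease that activates elastase, and the granule proteoglycan Srgn lower (log2 -0.87, adjusted p = 0.00193), with a median log2 of 0.86. At 1 of 10 in each direction, the counts are near the shares over all genes. Of 16 other secondary and tertiary granule genes, 7 were called higher and Adam8 lower (log2 -1.33, adjusted p = 0.000411). Lyz2, the lysozyme of macrophages and neutrophils, rose 4.09-fold (adjusted p = 0.000468), and Ncf1, a subunit of the NADPH oxidase, 1.60-fold (adjusted p = 0.00738). Macrophages also express several of these genes. The list's median was 0.68.

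Of 19 genes listed as those of mature neutrophils, 6 were called higher and 2 lower, and 12 were fitted higher, with a median of 0.78. Padi4, which citrullinates histones, rose from 0.532 ± 0.467 (SD, n = 4) to 4.19 ± 0.908 CPM (SD, n = 5; 8.65-fold, adjusted p = 0.00647, edgeR). Wfdc21 rose 2.05-fold (adjusted p = 0.00106), and the decoy receptor Il1r2 fell by 1.67 on the log2 scale (adjusted p = 0.0112). The summed granule and alarmin genes had 169, 456 and 122 CPM in P3 null replicates 1 to 3. Padi4 (3.18, 7.74 and 1.58 CPM) kept that order, and Wfdc21 (120, 89.4 and 92.7 CPM) and Il1r2 (11.5, 6.86 and 8.57 CPM) did not. The cells that made these RNAs were not identified. The next lists each had 1 gene called higher and 1 lower, near the shares over all genes in both directions. Of 9 granulopoiesis regulators tested, Myb, a factor of progenitor cells, rose 2.20-fold (adjusted p = 0.00527) and Cebpd fell by 1.40 on the log2 scale (adjusted p = 0.00211, edgeR). Of 14 chemoattractants and cytokines tested, Cxcl12, which holds neutrophils in marrow, rose 1.66-fold (adjusted p = 0.00355) and the neutrophil attractant Cxcl1 fell by 1.61 (adjusted p = 0.0469). Among 12 receptors and inhibitors of the granule and alarmin proteins, Itgb2 rose 2.15-fold (adjusted p = 0.0462) and Ager, a receptor for S100 proteins, fell by 1.14 (adjusted p = 0.0226).

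**Figure D4:**
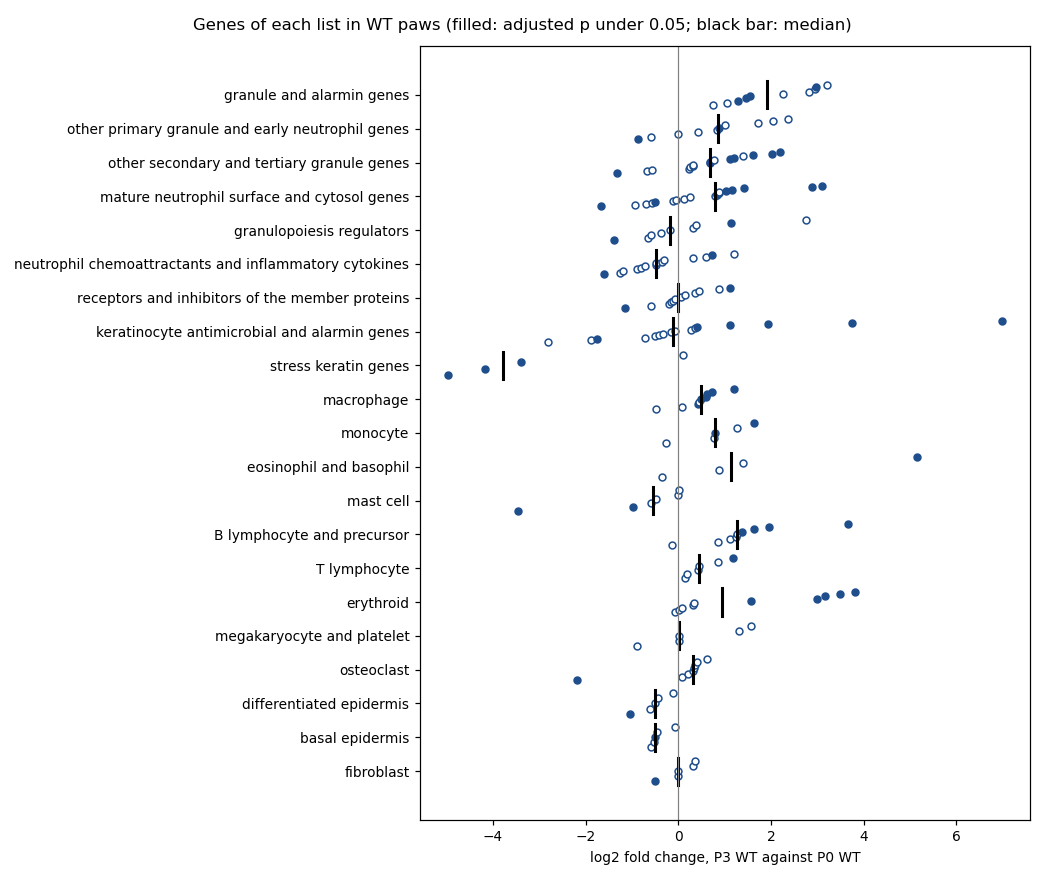
Fitted log2 fold changes for P3 WT against P0 WT (horizontal axis) of the genes of each list (rows), filled where edgeR's adjusted p is under 0.05, with the list median as a black bar. The granule and alarmin genes lie between 0.74 and 3.21 with a median of 1.90, and the stress keratins Krt6a, Krt6b and Krt16 lie far to the left.

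Of 4 stress keratins, which keratinocytes switch on when injured, 3 were called lower. Krt6a, Krt6b and Krt16 fell in WT paws between P0 and P3 (log2 -3.40, -4.98 and -4.17, adjusted p of 0.00262, 0.00827 and 0.00488, edgeR). P0 WT replicate 4, of column run B, had the lowest P0 WT level of each. It was at 42.6, 25.8 and 267 CPM, against 338 to 444, 180 to 499 and 919 to 1495 CPM in the other P0 WT libraries. P3 WT libraries reached up to 37.2, 13.8 and 78.3 CPM. Krt17 was not called (log2 0.09, adjusted p = 0.778), at 422 ± 108 CPM on P0 (SD, n = 4) and 451 ± 63.3 CPM on P3 (SD, n = 5). The 4 genes summed to 637 to 2990 CPM on P0 and 495 to 615 CPM on P3, where Krt17 made up most of the sum. Of 16 genes listed as keratinocyte antimicrobial and alarmin genes, 5 were called higher and Defb1 lower. Among the 5 were the S100 genes S100a7a (3.84-fold), S100a3 (13.4-fold) and S100a4 (2.17-fold). S100a3 ranged from 14.9 to 144 CPM between the P3 WT libraries. Which cells made these RNAs was not measured. The median log2 of the 16 genes was -0.11.

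Markers of some other blood cell types were also called higher on P3, beside 8.49% of all genes. In WT paws edgeR called 6 of 9 macrophage markers (summed levels 374 to 553 CPM on P0 and 624 to 738 on P3), 2 of 5 monocyte markers (80.1 to 181 and 158 to 236 CPM) and 4 of 9 B lymphocyte markers tested (66.2 to 88.5 and 67.7 to 91.6 CPM). Of 10 erythroid genes 5 were called higher, with sums of 590 to 3716 CPM on P0, the highest in P0 WT replicate 1, and 604 to 2757 CPM on P3. Of 6 mast cell markers Hdc and Cpa3 fell. Of the remaining lists, Ear2 (of 4 eosinophil and basophil genes tested) and Cd4 (of 6 T cell genes) were called higher, and Calcr (of 8 osteoclast genes), Lor (of 5 genes of differentiated epidermis), Itga6 (of 5 of basal epidermis) and Pdgfra (of 5 fibroblast genes) lower. Of the osteoclast genes 7 of 8 were fitted higher, with a median log2 of 0.32, and so were 4 of the 5 fibroblast genes, with a median of 0.0037. In both epidermal lists 0 of 5 were fitted higher. None of 5 megakaryocyte and platelet genes was called. None of the defining markers of macrophages, monocytes or B cells was at 0 in all libraries of a group. Their part in the rise of the granule genes was not tested.

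Osteoclast markers moved with the granule genes between the P3 Krt9 null libraries. The 8 osteoclast genes summed to 911, 1656 and 626 CPM in null replicates 1 to 3. The summed granule and alarmin genes had the same order there. Mmp9, at 286, 702 and 170 CPM there, is on both the osteoclast list and that of other secondary and tertiary granule genes. In P3 WT the osteoclast genes summed to 1298 to 2194 CPM, and the order was not fully kept. P3 WT replicate 3 had the lowest granule and alarmin sum, 178 CPM, with an osteoclast sum of 1817 CPM. Replicate 5 had the lowest osteoclast sum, 1298 CPM, with a granule and alarmin sum of 257 CPM. Fibroblast genes summed to 22630, 53820 and 16685 CPM in null replicates 1 to 3, and epidermal differentiation genes to 45590, 19142 and 39882 CPM. Their part in the spread of the granule genes was not tested. No gene of the 20 other lists was called between genotypes on either day or in the interaction. In null paws between P0 and P3, Ctsc, Lyz2, Wfdc21 and Adgre1 were called higher, and Srgn and Hdc lower, of the genes on these lists.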

How the data were processed

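RNA of whole paws was measured as ribosomal RNA-depleted total RNA in 14 libraries. The authors deposited raw read counts per gene without normalization, checked here to be whole numbers. STAR 2.7.10a, the GRCm39 build and featureCounts appear in the submitters' processing notes, beside edgeR and limma. How strand and low counts were handled is unstated there. No table column lacked a sample. Symbols came from the reference annotation for 52073 IDs, and 4618 IDs without one, with 0.623% of counts, were fitted under their IDs.

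Genes were kept by filterByExpr (21619 of 56691, with all 10 granule and alarmin genes), scaled by TMM and fitted with the robust quasi-likelihood test of edgeR 4.0.16 (R 4.3.3). The design held 4 groups and labelled sex over all 14 libraries, with 9 residual degrees of freedom. P-values were adjusted by Benjamini-Hochberg over all genes tested and called under 0.05. The script was tested on simulated data. SE is the log2 fold change over the root of F. Exon lengths came from a GRCm38 annotation, another build than the alignment. Promoter sequences came from the RefSeq table for GRCm38.p6, where all 10 genes matched, and were searched over 250 bases. Motif positions count back from the start site.

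The 10 genes, the 20 other lists and the rules for named genes were chosen with earlier results of these data known. For each list, up to 3 called genes with the smallest adjusted p were named, and 4 patterns of most like genes took 8 genes each with a mean of at least 2 CPM, leaving out predicted genes. Ahsp matched no ID. Alternatives were DESeq2 1.42.0, limma 3.58.1 voom, DESeq2 size factors or library size alone for scaling, no filter, no sex term, only the groups compared, litter as a replicate block, column run as a term or each run alone, and each library left out.

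Within a day, only litter 1 of P0 holds both genotypes, and litter numbers recur across days, where equal numbers may not mean 1 litter. Residual correlations of libraries of different groups with equal numbers, over 7 pairs, ran from -0.09 to 0.17. Python 3.11.15, NumPy 2.4.6, pandas 2.3.3 and matplotlib 3.10.9 were used for the rest.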

Additional observations from a re-analysis of the deposited data

Results flagged for a closer look

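P0 WT replicate 2 lay far above the other 3 libraries of its group for Lcn2, at 19.3 CPM against 6.14 to 7.89 CPM, and for Elane, at 1.96 CPM against 0 to 0.285 CPM. The same library was the highest of P0 for 8 of the 10 genes. P3 WT replicate 4 stood above its group for Retnlg, at 24.3 CPM against 15.6 to 17.3 CPM. The test for such gaps was run on 20 combinations of gene and WT group, and chance flags about 1 in 20. Without P0 WT replicate 2, edgeR called 5 of the 10 genes higher on P3 in WT paws, and without P3 WT replicate 4 it called 0. Of all genes it called 1984 of 21755 and 2683 of 21764 in either direction.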

How the results depend on the processing

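The calls for the 10 genes depended on the tool, the filter and single libraries, and small groups limited every comparison, above all those with the 2 P0 Krt9 null libraries. For P3 against P0 in WT paws, 10 of the 10 genes were called with no filter, 8 by DESeq2, 7 with only the groups compared, 0 with the replicate block and in run A, 2 in run B, and 0 to 5 with 1 library left out. In null paws 8 were called with no filter, 1 by DESeq2 and 4 in run B. No filter also called 1 for the interaction, and run B called 2 for genotype on P3. The cause was not tested. With no filter, 36822 genes entered the fit and the adjusted p of the 10 genes in the WT day comparison ran down to 2.17e-50, so its calls are given as values only. Calls over all genes for the WT day comparison were 4203 of 36822 with no filter and 3885 of 18912 with only the groups compared. By DESeq2 they were 4696 of 21619. They were 3 with the replicate block, 5570 with the run as a term, 6420 in run A, 486 in run B and 1629 to 4332 with 1 library left out. For the null day comparison they were 1692 with no filter, 1094 by DESeq2, 41 without the sex term, 1 with only the groups compared, 0 with the block, 1070 with the run term, 13 in run A, 1686 in run B and 0 to 645 with 1 library left out. For genotype on P0 they were 182 with no filter, 9 by DESeq2, 0 with the block, 627 in run A, 9 in run B and 1 to 3 with 1 library left out. On P3 they were 631, 26, 0 (block), 7 (run term), 112 (run B) and 1 to 200, the highest without P3 null replicate 2. For the interaction they were 1 with library size alone, 617 with no filter, 85 by DESeq2, 7 with the run term, 26 in run A, 14 in run B and 0 to 47 with 1 library left out. Scaling by library size alone shifted the median log2 of all genes, relative to TMM, by 0.11 for genotype on P0, 0.11 for the WT day comparison and -0.16 for the interaction.

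The replicate block, which confounds litter with group in most libraries, gave medians over the 10 genes of 2.05 (genotype on P0), -2.06 (genotype on P3), 4.49 (day in WT), -0.21 (day in null) and -4.91 (interaction). Under it the null day differences turned to -1.21 (Camp), -1.13 (Ngp), -1.82 (Ltf), -0.031 (Lcn2), -0.12 (Mmp8), -4.75 (Mpo) and -0.31 (Retnlg), those of genotype on P0 to 0.21 (S100a8), 2.71 (Ngp), 0.35 (Lcn2), 0.88 (Mmp8), 5.56 (Elane), 8.00 (Mpo) and 1.39 (Retnlg), and the interaction to -6.37 (Elane) and -17.01 (Mpo). Run A gave a median of 0.63 for genotype on P3, and run B -1.18 on P0 and -1.21 on P3.

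No gene of the 10 reversed in the WT day comparison. Run A reversed genotype on P0 for S100a8 (0.21), Ngp (0.40), Mmp8 (0.12) and Retnlg (0.14), and on P3 for S100a8 (0.46), S100a9 (0.57), Camp (0.83), Ngp (0.83), Ltf (0.83), Lcn2 (0.69), Mmp8 (0.40), Elane (0.52), Mpo (0.75) and Retnlg (0.19). It reversed the interaction for S100a8 (0.26), S100a9 (0.63), Ngp (0.43), Lcn2 (1.17), Mmp8 (0.29) and Retnlg (0.057). Run B reversed genotype on P0 for Camp (-1.35), Ltf (-2.09), Lcn2 (0.32) and Mpo (0.15), the null day difference of Lcn2 (-0.10), and the interaction for Camp (0.064), Ngp (0.31), Ltf (0.70), Mmp8 (0.72), Elane (-1.01), Mpo (-1.52) and Retnlg (0.92). The interaction also turned for Mpo by DESeq2 (-0.11), the run term (-0.089), library size alone (-0.15) and limma voom (-0.94), for S100a9 (0.038), Mmp8 (0.19) and Elane (-0.68) by voom, and for S100a9 (0.14), Ngp (0.073), Lcn2 (0.13), Mmp8 (0.25) and Retnlg (0.13) without the sex term. Genotype on P0 turned for Lcn2 with the run term (0.028), S100a8 (0.0093) and Ngp (0.10) with library size alone, Mpo by voom (0.43) and Ngp with only the groups compared (0.056).

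With 1 library left out, which leaves the P0 null arm with 1 sample assumed to vary like the other groups, the medians ran from -1.37 to 0.53 (genotype on P0), -0.92 to -0.18 (genotype on P3), 0.61 to 2.89 (day in null) and -1.01 to 0.80 (interaction). Genotype on P0 then ran from -1.07 to 0.58 for S100a8, -1.39 to 0.30 for S100a9, -1.26 to 1.99 for Camp, -2.07 to 1.06 for Ngp, -2.02 to 1.93 for Ltf, -0.31 to 0.23 for Lcn2, -1.51 to 0.49 for Mmp8, -2.04 to 0.62 for Elane, -1.28 to 0.65 for Mpo and -1.80 to 0.79 for Retnlg. On P3 it ran from -1.38 to 0.063 for Camp, -1.36 to 0.024 for Ngp, -1.61 to 0.052 for Ltf and -0.80 to 0.0094 for Lcn2. The null day difference of Retnlg ran from -0.29 to 2.30. The interaction ran from -1.10 to 0.54 for S100a8, -0.82 to 0.87 for S100a9, -2.52 to 0.73 for Camp, -1.61 to 1.52 for Ngp, -2.52 to 1.43 for Ltf, -0.63 to 0.15 for Lcn2, -0.92 to 1.07 for Mmp8, -1.17 to 1.49 for Elane, -1.17 to 0.74 for Mpo and -1.48 to 1.11 for Retnlg. Of the single-gene values, 617 of those with 1 library left out and 434 under other settings kept their direction and side of the threshold.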
